A study of Arabidopsis thaliana with 8 samples.

Results

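The SWEET genes of Arabidopsis thaliana code for sugar transporters, and 10 of the 17 family members are described here across 4 groups of seedlings. They are SWEET1, SWEET2, SWEET4, SWEET11, SWEET12, SWEET13, SWEET14, SAG29 (also called SWEET15), SWEET16 and SWEET17, found by locus in a read count table of 33674 features. The 10 were selected on earlier results from these same libraries, and neither the contrast nor a threshold is recorded. All 10 passed an adjusted p of 0.05 for the ABA difference in wild type, which the 7 other SWEET genes did not, so that difference is treated here as the one that chose them. This is an inference, and whether the skip-1 libraries also entered the choice is not known. The ABA difference in wild type, and the difference between the ABA effects of the genotypes, which contains it, are given as descriptions with no test. The genotype comparisons share wild-type libraries with it, so a wild-type level that helped to choose a gene also enters its genotype test. The adjusted p-values of those comparisons are therefore not free of the choice, and its part in them was not tested. All tests estimate the spread over the 8 libraries.

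Seedlings of the skip-1 mutant and of the wild type Col-0, 13 days old, were exposed to abscisic acid (ABA) at 100 or 0 µM over 3 h, and their mRNA was sequenced. The groups are skip-1 with ABA, skip-1 without ABA, wild type with ABA and wild type without ABA, with 2 libraries each. SKIP is a protein of the spliceosome with a further role in transcription, and ABA is the hormone of drought stress and seed dormancy. All 4 groups share the Columbia-0 ecotype and the long-day growth conditions. What is altered in the skip-1 allele, and how many seedlings went into each library, is not stated in the labels.

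SWEET proteins are uniporters that let sugars cross a membrane down their own gradient, without the proton coupling of the SUC and STP symporters. Members of clade I and clade II carry mainly hexoses, those of clade III carry mainly sucrose out of cells, and those of clade IV sit in the vacuolar membrane and carry mainly fructose. In leaves, SWEET11 and SWEET12 release sucrose from phloem parenchyma next to the companion cells that load it. SAG29 is known from senescing leaves, from osmotic stress and, with SWEET11 and SWEET12, from the feeding of the embryo in the seed.

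Library totals ran between 20870110 and 23640113 counted reads, and 21008 features passed the filter on low counts. Log2 counts scaled to library size and composition (CPM) correlated across features at 0.983 or more within a group and at 0.959 or less between groups. SKIP had 108 and 125 CPM in skip-1 with ABA and 104 and 133 CPM in skip-1 without ABA, against 136 and 161 CPM in wild type with ABA and 150 and 163 CPM in wild type without ABA. The transcript was therefore present in skip-1, and its difference from wild type did not pass the test (log2 fold change of -0.40 ± 0.15, adjusted p = 0.0822, without ABA). Photosynthesis genes summed to 13494 to 34522 CPM and root markers to 71.6 to 139 CPM, while 4 seed storage and oil body markers summed to at most 0.727 CPM, of which 1 had no count in any library. In whole seedlings, fewer cells of a type and less RNA per cell cannot be told apart.

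All 10 genes lie on the minus strand and have up to 6 exons, with proteins of 236 to 294 residues in the RefSeq annotation of TAIR10.1. SWEET11 and SWEET12 were the closest pair, with 86.2% identical aligned residues. SWEET13 and SWEET14 shared 76.1%, and SWEET16 and SWEET17 shared 72.2%. SAG29 had no near copy among them, with 46.2% to 49.5% identity to the other clade III members, and SWEET2 and SAG29 were the least alike at 34.1%. The longest run of bases shared by a pair's transcripts was 29 for SWEET11 and SWEET12, 24 for SWEET13 and SWEET14 and 19 for SWEET16 and SWEET17. SWEET1 overlaps AT1G21450 on the opposite strand by 52 bases, and whether reads were counted by strand is not stated in the labels. AT1G21450 stayed between 32.5 and 38.6 CPM in all 8 libraries.

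The 300 bases upstream of the annotated start are shown for SAG29, SWEET4 and SWEET13, which passed as higher in skip-1 than in wild type without ABA. Those of SWEET14 are shown beside them, although it entered that test only through its skip-1 libraries. Bases are from the TAIR10.1 genome, 5′ to 3′ on the gene's own strand. Capitals mark ACGTG on either strand (read as CACGT on the other), the core of the ABA-responsive element that bZIP factors of the ABF and ABI5 type are known to bind. The windows lie at chr5:4183355-4183654 for SAG29, chr3:10409978-10410277 for SWEET4, chr5:20667313-20667612 for SWEET13 and chr4:12856542-12856841 for SWEET14.
SAG29: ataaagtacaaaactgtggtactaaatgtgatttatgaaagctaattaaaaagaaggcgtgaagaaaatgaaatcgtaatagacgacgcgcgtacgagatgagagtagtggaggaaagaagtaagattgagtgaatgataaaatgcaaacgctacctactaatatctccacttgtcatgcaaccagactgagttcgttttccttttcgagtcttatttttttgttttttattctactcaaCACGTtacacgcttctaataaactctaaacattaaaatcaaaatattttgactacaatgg
SWEET4: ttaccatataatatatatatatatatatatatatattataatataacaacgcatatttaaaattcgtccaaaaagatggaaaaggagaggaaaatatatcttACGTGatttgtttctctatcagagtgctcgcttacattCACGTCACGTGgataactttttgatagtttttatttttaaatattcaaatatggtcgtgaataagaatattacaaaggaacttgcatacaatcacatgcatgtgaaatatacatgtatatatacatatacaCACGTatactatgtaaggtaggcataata
SWEET13: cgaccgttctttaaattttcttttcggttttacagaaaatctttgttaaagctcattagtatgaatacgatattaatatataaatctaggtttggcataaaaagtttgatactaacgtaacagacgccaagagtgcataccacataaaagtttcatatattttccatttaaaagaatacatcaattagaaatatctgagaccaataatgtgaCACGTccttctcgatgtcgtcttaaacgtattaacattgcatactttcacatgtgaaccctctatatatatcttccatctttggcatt
SWEET14: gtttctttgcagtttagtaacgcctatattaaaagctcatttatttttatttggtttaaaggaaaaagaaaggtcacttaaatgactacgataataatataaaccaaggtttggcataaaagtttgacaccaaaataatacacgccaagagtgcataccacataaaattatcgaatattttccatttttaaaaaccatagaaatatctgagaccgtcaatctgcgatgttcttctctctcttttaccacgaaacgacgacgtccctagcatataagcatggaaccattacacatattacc
ACGTG was found once in the SAG29 window, once in the SWEET13 window and 5 times in the SWEET4 window, where 2 of the matches overlap in the palindrome CACGTG and another abuts it. It was not in these 300 bases of SWEET14. Among the 10 members, 3 windows held ACGTG (SWEET4, SWEET13 and SAG29), while 25.6% of 27443 protein-coding genes held it in a window of the same length. Within 1000 bases upstream, 8 of 10 members and 54.4% of all these genes held it. The longer forms ACGTGTC or ACGTGGC were in the 300 bases of 1 member (SWEET13) and of 7.01% of genes, and CACGTG was in 1 member (SWEET4) and 7.09% of genes. A match is a string of letters, and binding was not measured.

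**Figure D1:**
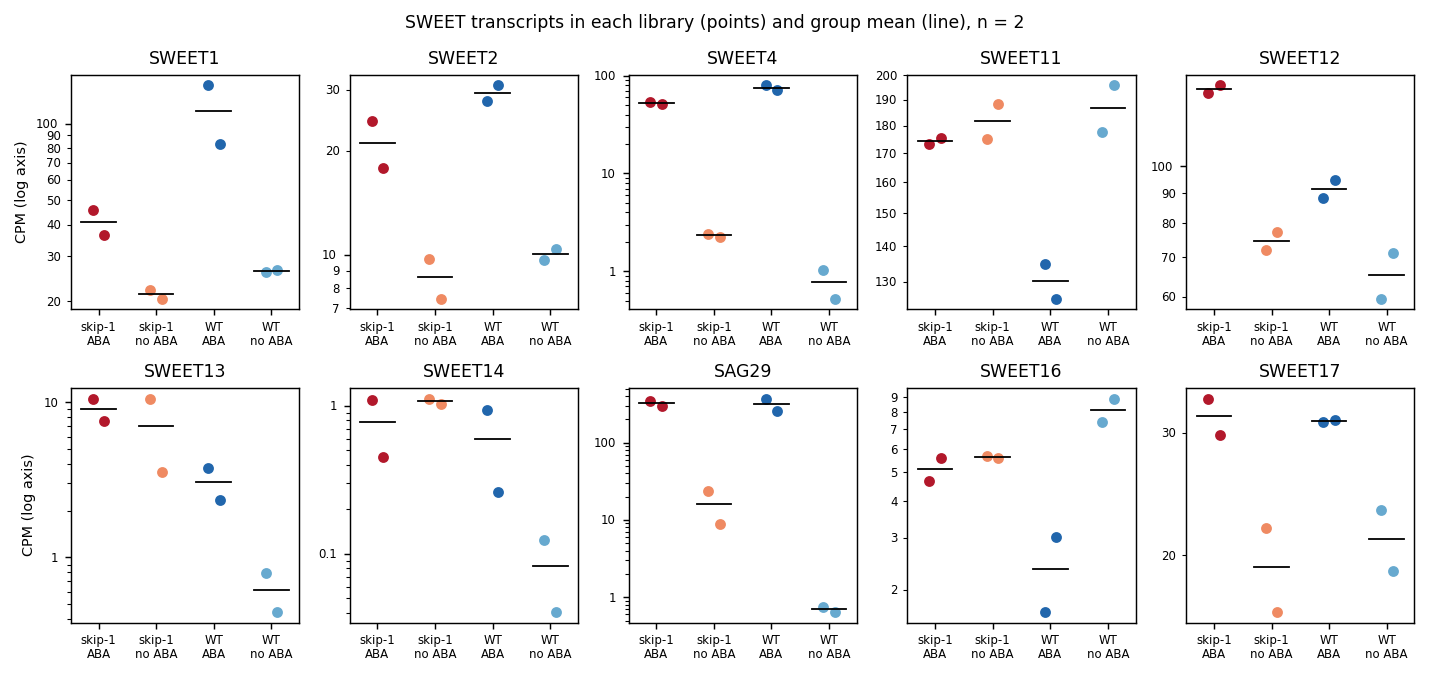
Level of each SWEET transcript in CPM on a log axis, with points for the 2 libraries of a group and a line for the group mean. SAG29 and SWEET4 sit far above their levels without ABA in both genotypes, and without ABA both are higher in skip-1 than in wild type.

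Levels of different genes are compared by the authors' FPKM, which is per kilobase of gene. With ABA in skip-1 the order was SAG29 (249 ± 31 FPKM, SD, n = 2), SWEET11 (134 ± 0.26), SWEET12 (107 ± 1.2), SWEET4 (52.1 ± 2.7), SWEET1 (41.2 ± 6.9), SWEET17 (31.8 ± 3.0), SWEET2 (12.8 ± 2.9), SWEET13 (7.23 ± 1.7), SWEET16 (5.38 ± 0.61) and SWEET14 (0.610 ± 0.36), and no neighbours in that order overlapped. Without ABA in skip-1, SWEET11 led with 143 ± 2.4 FPKM and SWEET12 followed with 60.4 ± 0.96, ahead of SWEET1, SWEET17 and SAG29 at 21.9 ± 2.0, 19.8 ± 4.5 and 13.0 ± 8.6 FPKM, of which each overlapped its neighbour. SWEET16, SWEET13 and SWEET2 came next, between 6.05 and 5.34 FPKM and also overlapping, then SWEET4 (2.36 ± 0.18) and SWEET14 (0.869 ± 0.079). By group mean, SAG29 was thus the leading SWEET transcript of skip-1 with ABA and the fifth without it. Its libraries without ABA, at 6.94 and 19.1 FPKM, also overlapped the range of SWEET13 (2.87 to 8.92).

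In wild type with ABA, SAG29 again led with 219 ± 57 FPKM, followed by SWEET1 (102 ± 37) and SWEET11 (90.7 ± 3.9), which overlapped. SWEET4 (67.3 ± 5.4) and SWEET12 (65.7 ± 3.8) also overlapped, and SWEET17 (28.4 ± 0.38), SWEET2 (16.1 ± 1.3), SWEET16 (2.24 ± 0.92), SWEET13 (2.22 ± 0.71) and SWEET14 (0.427 ± 0.34) followed. Without ABA, wild type had the order SWEET11 (150 ± 8.7), SWEET12 (54.1 ± 6.3), SWEET1 (27.6 ± 0.056), SWEET17 (22.2 ± 3.4), SWEET16 (8.95 ± 1.0) and SWEET2 (6.35 ± 0.26). SWEET4, SAG29 and SWEET13 came after these at 0.812 ± 0.38, 0.565 ± 0.063 and 0.521 ± 0.21 FPKM, each overlapping its neighbour, and SWEET14 was last at 0.0682 ± 0.050. SAG29 thus held the eighth place in wild type without ABA and the first with it.

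Summed over the 10 genes, the family reached 674 and 608 FPKM in skip-1 with ABA, against 291 and 266 FPKM in skip-1 without ABA. In wild type the sum was 663 and 524 FPKM with ABA, against 263 and 280 FPKM without. SAG29 made up 40.1% and 37.4% of that sum in skip-1 with ABA and 6.56% and 2.61% in skip-1 without ABA. In wild type its share was 39.1% and 34.0% with ABA, against 0.232% and 0.186% without. SWEET11 held the largest share without ABA, with 48.5% and 54.3% in skip-1 and 54.8% and 55.8% in wild type. With ABA its share was 19.9% and 22.0% in skip-1 and 14.1% and 16.8% in wild type.

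**Figure D2:**
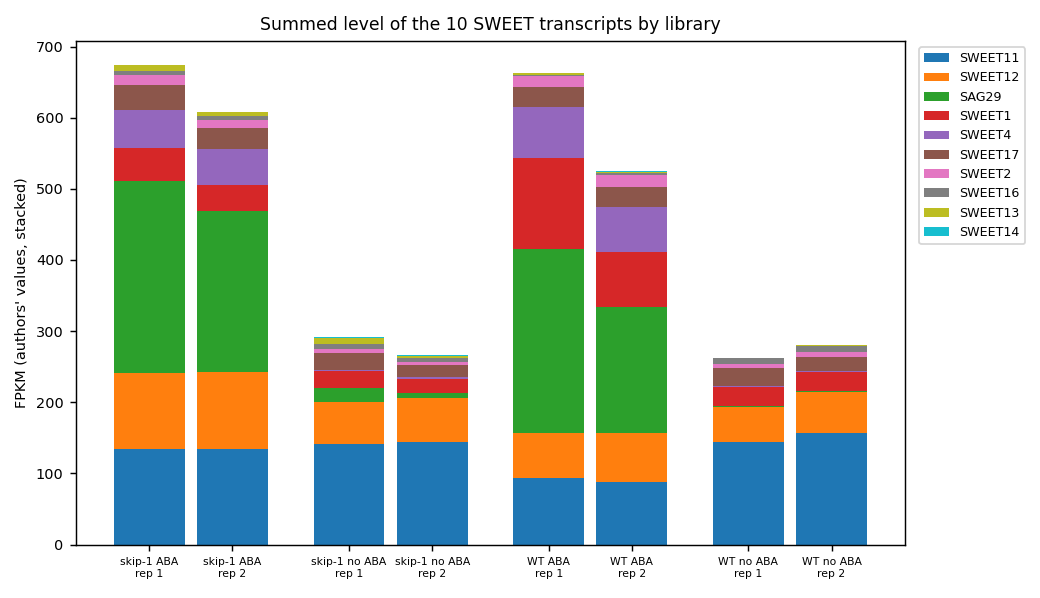
FPKM of the 10 SWEET transcripts stacked in each of the 8 libraries. The 4 libraries with ABA reach 524 to 674 FPKM and the 4 without reach 263 to 291 FPKM, and SAG29 accounts for most of the added height.

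ABA in skip-1 raised 6 of the 10 transcripts and lowered none, with log2 fold changes between 0.72 for SWEET17 and 4.50 for SWEET4 among the 6. SWEET1, SWEET2, SWEET4, SWEET12, SAG29 and SWEET17 passed the edgeR test with Benjamini-Hochberg adjustment over all features. SWEET11, SWEET13, SWEET14 and SWEET16 did not, and their values are given below. The median over the 10 was 0.79 on the log2 scale, beside -0.02 over all features, of which 28.5% passed (3429 higher and 2549 lower). The 10 genes were picked with results of these libraries known, so 6 in 10 is no rate for the family.

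For the ABA difference in wild type, all 10 members passed beside 43.1% of features, which is treated as the choice itself and is read no further. In that comparison 8 were higher with ABA, and SWEET11 and SWEET16 were lower. The fitted log2 differences ran between -1.80 ± 0.27 for SWEET16 and 8.80 ± 0.62 for SAG29 (± SE), with a median of 1.82. The members with the smallest sizes were SWEET12 (0.49 ± 0.11), SWEET11 (-0.52 ± 0.10) and SWEET17 (0.56 ± 0.16). Of the SWEET genes not among the 10, SWEET5 and SWEET10 passed the filter on low counts, at 0.38 ± 0.38 and -0.10 ± 0.31, and SWEET3, SWEET6, SWEET7, SWEET8 and SWEET9 did not pass it.

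Without ABA, SAG29, SWEET13 and SWEET4 were higher in skip-1 than in wild type, at log2 fold changes of 4.54, 3.52 and 1.57, and no member was lower. Over all features 20.5% passed (2195 higher and 2102 lower). SWEET14 was also higher, at 3.63, but entered the test only through its skip-1 libraries, so its value is a description. All 4 had few counts in wild type without ABA, between 1 and 25 per library, and these libraries also enter the ABA difference treated as the choice. The other 6 members had log2 fold changes between -0.53 and 0.19 and did not pass.

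With ABA, 5 members passed between skip-1 and wild type, beside 31.0% of all features (2855 higher and 3649 lower). SWEET2 and SWEET13 also passed with the replicate number as a block, a fit to which the 31.0% does not belong. SWEET11, SWEET12 and SWEET16 were higher in skip-1, and SWEET1 and SWEET4 were lower. SAG29, the member that differed most without ABA, stood at a log2 fold change of 0.04 ± 0.39 (adjusted p = 0.945). The median over the 10 was 0.20, beside -0.02 over all features.

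The ABA effect in skip-1 minus that in wild type was -4.50 ± 0.74 for SAG29 and -2.09 ± 0.30 for SWEET4 on the log2 scale. For both, the level without ABA was the higher one in skip-1. Over the other members the difference ran between -3.28 ± 1.09 for SWEET14 and 1.66 ± 0.37 for SWEET16. Since it contains the wild-type ABA effect treated as the choice, the difference is a description for the members. In the fit across all features 2 members passed beside 3.07% of features (168 higher and 476 lower), and with the replicate number as a block 4 members and 1357 features in place of 644, counts that are read no further.

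**Figure D3:**
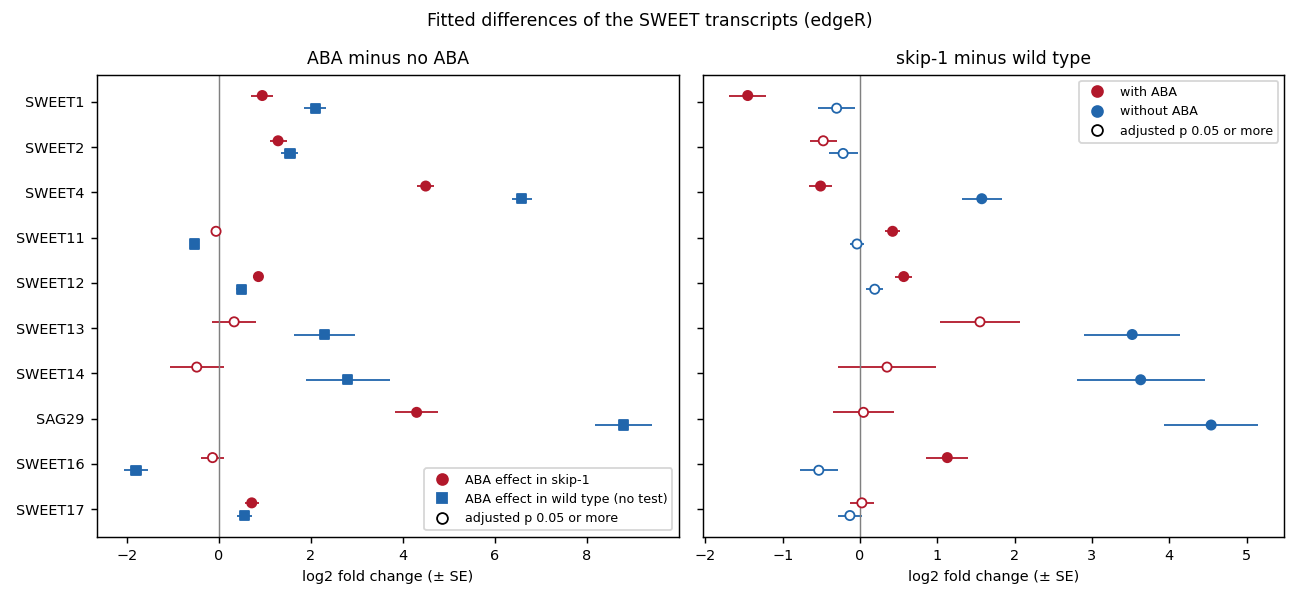
Fitted log2 fold changes with their standard errors for ABA against no ABA (left) and skip-1 against wild type (right). Open circles did not pass an adjusted p of 0.05, and squares, the wild-type ABA differences treated as the choice of the genes, carry no test. SWEET14 without ABA, at 3.63 on the right, entered the test only through its skip-1 libraries.

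Among the clade III members, SAG29 (AT5G13170, chromosome 5, positions 4181042 to 4183354) had the widest range. It had 348 and 296 CPM in skip-1 with ABA and 23.6 and 8.98 CPM in skip-1 without ABA, against 372 and 253 CPM in wild type with ABA and 0.748 and 0.648 CPM in wild type without ABA. The 4 libraries with ABA lay far above the others and the genotypes overlapped there, while without ABA both skip-1 libraries lay above both wild-type ones. The lowest of these rested on 16 and 18 counts in wild type, against 588 and 191 in skip-1 without ABA. In skip-1, ABA raised SAG29 by 4.30 ± 0.46 on the log2 scale, a fold change of 19.7 (adjusted p = 0.00107). Without ABA it was 23.3-fold higher in skip-1 than in wild type (log2 fold change 4.54 ± 0.61, adjusted p = 0.00535). That call was lost without replicate 2 of wild type without ABA, where the log2 fold change was 4.44 and the adjusted p 0.0513.

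SWEET13 (AT5G50800) and SWEET14 (AT4G25010), a close pair that transports sucrose and has also been shown to move gibberellin, were low in every group. SWEET13 had 10.4 and 7.54 CPM in skip-1 with ABA and 10.6 and 3.57 CPM in skip-1 without ABA, against 3.76 and 2.35 CPM in wild type with ABA and 0.789 and 0.446 CPM in wild type without ABA. All 4 skip-1 libraries lay above the wild-type libraries except replicate 2 without ABA, which fell within the wild-type range with ABA. Without ABA, SWEET13 was 11.5-fold higher in skip-1 (log2 fold change 3.52 ± 0.62, adjusted p = 0.0104). The call was lost without either wild-type library without ABA (log2 fold changes of 3.97 and 3.16, adjusted p-values of 0.0549 and 0.0859). In skip-1 the ABA difference was 0.33 ± 0.48 (adjusted p = 0.644), and the groups overlapped. It reached 1.31 with an adjusted p of 0.0389 without replicate 1 of skip-1 without ABA. With ABA, SWEET13 stood at 1.55 ± 0.52 in skip-1 against wild type (adjusted p = 0.0599). That value passed with the replicate number as a block (adjusted p = 0.00269), without replicate 1 or 2 of skip-1 without ABA (0.00654 and 0.00542), in DESeq2 (0.00674) and with scaling by library size alone (0.0495). Between genotypes, the ABA effects differed by -1.97 ± 0.83.

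SWEET14 had 24 and 10 counts in skip-1 with ABA and 28 and 22 in skip-1 without ABA, against 19 and 5 in wild type with ABA and 3 and 1 in wild type without ABA. Both skip-1 libraries without ABA lay above all wild-type libraries. The gene passed the filter on low counts only through its skip-1 libraries, so a higher level there was a condition of its being tested. Without ABA the fitted log2 fold change was 3.63 ± 0.83, a value that depends on the prior count of the fit and is given with no test. With ABA the genotypes overlapped, at 0.35 ± 0.64 (adjusted p = 0.709). The ABA difference in skip-1 was -0.48 ± 0.58 (adjusted p = 0.573), also with overlap.

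SWEET11 (AT3G48740) and SWEET12 (AT5G23660), the phloem-loading pair, were abundant in all groups, and their ratio was higher with ABA. SWEET11 had 173 and 175 CPM in skip-1 with ABA and 175 and 188 CPM in skip-1 without ABA, against 135 and 126 CPM in wild type with ABA and 178 and 196 CPM in wild type without ABA. The 2 wild-type libraries with ABA were the lowest of the 8, and the other groups lay close together. In skip-1 the ABA difference was -0.06 ± 0.10 (adjusted p = 0.683). With ABA, SWEET11 was 1.34-fold higher in skip-1 than in wild type (log2 fold change 0.42 ± 0.10, adjusted p = 0.0128). This test uses the 2 low wild-type libraries that also enter the ABA difference treated as the choice. The call was lost without replicate 2 of wild type with ABA (0.37, adjusted p = 0.0836) and without replicate 1 or 2 of skip-1 with ABA (0.43 and 0.41, adjusted p-values of 0.0588 and 0.0639). The ABA effects of the genotypes differed by 0.46 ± 0.14.

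SWEET12 had 134 and 138 CPM in skip-1 with ABA and 72.0 and 77.2 CPM in skip-1 without ABA, against 88.4 and 94.9 CPM in wild type with ABA and 59.5 and 71.2 CPM in wild type without ABA. The 2 skip-1 libraries with ABA were the highest, and the groups without ABA did not overlap those with it. ABA raised SWEET12 in skip-1 by 0.86 ± 0.11 on the log2 scale, a fold change of 1.82 (adjusted p = 0.000686). With ABA it was 1.48-fold higher in skip-1 than in wild type (log2 fold change 0.56 ± 0.11, adjusted p = 0.00608), a call that held in all 13 alternatives. The difference of the ABA effects was 0.38 ± 0.15. SWEET11 and SWEET12 were thus both higher in skip-1 than in wild type once ABA was present.

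The ratio of SWEET12 to SWEET11 within a library, per kilobase, does not depend on library scaling. It was 0.793 and 0.808 in skip-1 with ABA and 0.423 and 0.422 in skip-1 without ABA, against 0.675 and 0.778 in wild type with ABA and 0.345 and 0.374 in wild type without ABA. All libraries with ABA had a higher ratio than all without, and in both states the skip-1 ratios lay above the wild-type ones. Since the ratio was formed from genes chosen with results of these libraries known, it is given with no test. Phloem markers were counted beside these genes. With ABA, 4 of 11 were higher in skip-1 than in wild type (NAC086, NAC045, SEOR1 and CALS7) and PP2-A1 was lower, beside 31.0% of all features passing, with a median log2 fold change of 0.33. Under ABA in skip-1 1 of 11 passed (OPS, lower, log2 fold change -0.62 ± 0.13, adjusted p = 0.00848), beside 28.5%, and none was at 0 in all libraries. Under ABA in wild type 5 of 11 passed, AHA3 higher and 4 lower, beside 43.1%, so their sum combines rises and falls. Their summed level was 509 to 541 CPM in skip-1 with ABA, 498 to 502 CPM in skip-1 without ABA, 493 to 532 CPM in wild type with ABA and 503.6 to 503.8 CPM in wild type without ABA. Their part in the levels of SWEET11 and SWEET12 was not tested.

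**Figure D4:**
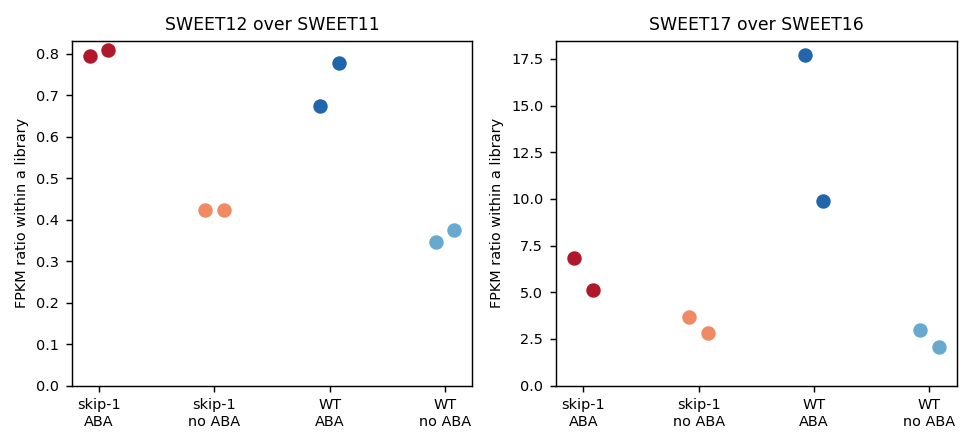
Ratio of SWEET12 to SWEET11 and of SWEET17 to SWEET16 in FPKM within each library, on a linear axis from 0. The 4 libraries with ABA have SWEET12 to SWEET11 ratios of 0.675 to 0.808, above the 0.345 to 0.423 of those without, and SWEET17 to SWEET16 is highest in wild type with ABA at 17.7 and 9.91.

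SWEET4 (AT3G28007, chromosome 3, positions 10408073 to 10409977), the clade II member, carries hexoses and is known from veins and roots. It had 54.3 and 51.2 CPM in skip-1 with ABA and 2.40 and 2.26 CPM in skip-1 without ABA, against 79.9 and 70.5 CPM in wild type with ABA and 1.04 and 0.527 CPM in wild type without ABA. No groups overlapped, and skip-1 lay above wild type without ABA and below it with ABA. ABA raised SWEET4 in skip-1 by 4.50 ± 0.19 on the log2 scale, a fold change of 22.6 (adjusted p = 2.34e-06). In wild type the fitted difference was 6.58 ± 0.22, given as a description. Without ABA it was 2.98-fold higher in skip-1 than in wild type (log2 fold change 1.57 ± 0.26, adjusted p = 0.00531), in all 13 alternatives. With ABA it was lower in skip-1, by a log2 fold change of -0.51 ± 0.15 (adjusted p = 0.0296). The high wild-type libraries in this test also enter the ABA difference treated as the choice. That call was lost without any of the 4 libraries with ABA (-0.60 to -0.41, adjusted p-values of 0.0599 to 0.163) and with scaling by library size alone (-0.37, adjusted p = 0.0963).

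The clade I members are SWEET1 (AT1G21460), a glucose carrier of the plasma membrane, and SWEET2 (AT3G14770), a vacuolar carrier that limits the loss of sugar from roots. SWEET1 had 45.7 and 36.5 CPM in skip-1 with ABA and 22.2 and 20.5 CPM in skip-1 without ABA, against 142 and 83.2 CPM in wild type with ABA and 26.1 and 26.6 CPM in wild type without ABA. No groups overlapped, and the 2 wild-type libraries with ABA lay furthest apart from each other. ABA raised SWEET1 in skip-1 by 0.94 ± 0.24 on the log2 scale (adjusted p = 0.0239), a fold change of 1.93. This call was lost without 4 of the libraries, namely replicate 1 of wild type without ABA (0.93, adjusted p = 0.0516), replicates 1 and 2 of skip-1 without ABA (0.99 and 0.91, adjusted p-values of 0.0889 and 0.124) and replicate 1 of skip-1 with ABA (0.77, adjusted p = 0.111). With ABA, SWEET1 was lower in skip-1 than in wild type, by a log2 fold change of -1.45 ± 0.24 (adjusted p = 0.00443). This 2.74-fold difference passed in all 13 alternatives. The 2 high wild-type libraries in this test also enter the ABA difference treated as the choice, and every alternative keeps at least 1 of them. Without ABA the difference was -0.30 ± 0.24 (adjusted p = 0.409). The difference of the ABA effects was -1.15 ± 0.34.

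SWEET2 had 24.4 and 17.8 CPM in skip-1 with ABA and 9.74 and 7.48 CPM in skip-1 without ABA, against 27.8 and 30.9 CPM in wild type with ABA and 9.68 and 10.4 CPM in wild type without ABA. The libraries with ABA were the higher ones in both genotypes, and the genotypes overlapped without ABA. ABA raised it in skip-1 by 1.29 ± 0.19 on the log2 scale, a fold change of 2.44 (adjusted p = 0.00132). With ABA it stood at -0.48 ± 0.18 in skip-1 against wild type (adjusted p = 0.0711). It passed there with the replicate number as a block (-0.49, adjusted p = 0.0466) and without replicate 1 of skip-1 with ABA (-0.72, adjusted p = 0.0406). Its ABA effects in skip-1 and wild type differed by -0.26 ± 0.26.

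The clade IV members are SWEET16 (AT3G16690), a vacuolar carrier of several sugars, and SWEET17 (AT4G15920), a vacuolar fructose carrier known from leaves and roots. SWEET16 had 4.69 and 5.59 CPM in skip-1 with ABA and 5.69 and 5.60 CPM in skip-1 without ABA, against 1.68 and 3.03 CPM in wild type with ABA and 7.44 and 8.91 CPM in wild type without ABA. The wild-type libraries held both the highest and the lowest values, and the 4 skip-1 libraries lay between them. In skip-1 the ABA difference was -0.13 ± 0.25 (adjusted p = 0.722). With ABA it was 2.19-fold higher in skip-1 than in wild type (log2 fold change 1.13 ± 0.27, adjusted p = 0.0154). The low wild-type libraries in this test also enter the ABA difference treated as the choice. The call was lost without replicate 1 of wild type with ABA (0.77, adjusted p = 0.0782) and without replicate 2 of skip-1 with ABA (1.00, adjusted p = 0.0751). The difference of the ABA effects was 1.66 ± 0.37, the highest of the 10.

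SWEET17 had 33.6 and 29.8 CPM in skip-1 with ABA and 21.9 and 16.6 CPM in skip-1 without ABA, against 31.0 and 31.3 CPM in wild type with ABA and 23.2 and 19.0 CPM in wild type without ABA. The libraries with ABA were the higher ones and the genotypes overlapped in both states. ABA raised SWEET17 in skip-1 by 0.72 ± 0.16 on the log2 scale (adjusted p = 0.00977), a fold change of 1.64. The call was lost without replicate 1 of skip-1 with ABA (0.63, adjusted p = 0.0570). The difference of the ABA effects was 0.15 ± 0.22. The ratio of SWEET17 to SWEET16 per kilobase was 6.86 and 5.11 in skip-1 with ABA and 3.69 and 2.85 in skip-1 without ABA, against 17.7 and 9.91 in wild type with ABA and 3.00 and 2.04 in wild type without ABA. Root markers moved as well. Their summed level was 85.7 to 110 CPM in skip-1 with ABA and 128 to 139 CPM in skip-1 without ABA, against 71.6 to 76.5 CPM in wild type with ABA and 125 to 137 CPM in wild type without ABA. Of 12 root markers, 6 were lower with ABA in skip-1 beside 28.5% of all features passing, and in wild type 8 were lower and 1 (WOX5) higher beside 43.1%, and none was at 0 in all libraries. Their part in the levels of SWEET2, SWEET4, SWEET16 and SWEET17 was not tested.

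The profile most like that of SAG29 over the 8 libraries was sought among the 21008 features, by the root mean square difference of log2 CPM after centring each feature on its own mean. The 5 nearest were AT3G02480 (0.598), AT2G35070 (0.819), GASA3 (AT4G09600, 0.862), AT1G09500 (0.887) and FAMT (AT3G44860, 0.959). AT3G02480 had 466 and 262 CPM in skip-1 with ABA and 32.5 and 22.0 CPM in skip-1 without ABA, against 1110 and 776 CPM in wild type with ABA and 1.87 and 1.58 CPM in wild type without ABA. Like SAG29, it was low in wild type without ABA, intermediate in skip-1 without ABA and high in the 4 libraries with ABA. Unlike SAG29, it was lower in skip-1 than in wild type with ABA, with no overlap. GASA3 had 23 and 11 counts in skip-1 without ABA and none in either wild-type library without ABA. For SWEET4 the nearest profiles were ChlAKR (AT2G37770, 0.313), AT1G69480 (0.319), ERD9 (AT1G10370, 0.323), LTP3 (AT5G59320, 0.402) and ULT2 (AT2G20825, 0.419). For SWEET13 they were RVE8 (AT3G09600, 0.341), NDA1 (AT1G07180, 0.358), GBSS1 (AT1G32900, 0.427), GPX7 (AT4G31870, 0.439) and AT1G06100 (0.456). None of the nearest 5 of SAG29, SWEET4 or SWEET13 was another member, and this likeness is a description over 8 libraries.

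**Figure D5:**
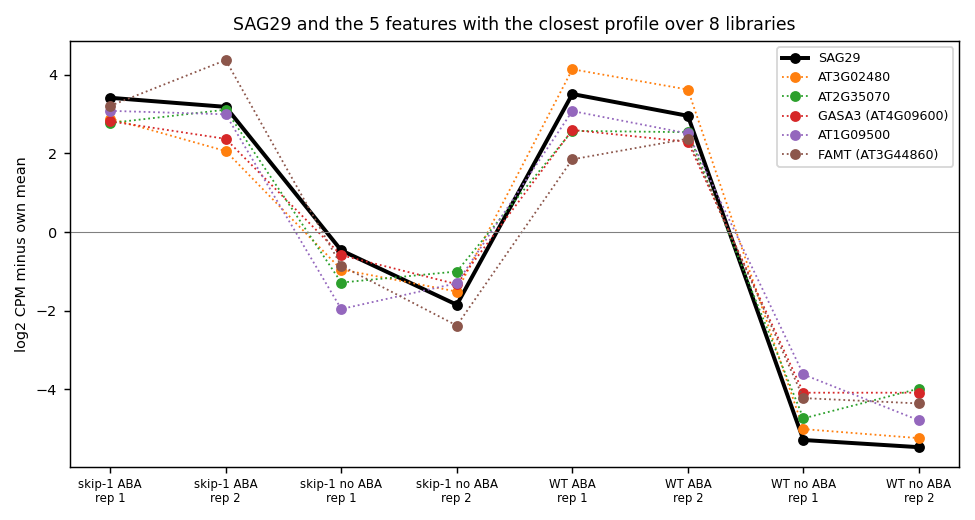
Log2 CPM of SAG29 and of the 5 features with the closest profile in each library, each minus its own mean over the 8 libraries. All 6 lines are lowest in the 2 libraries of wild type without ABA and highest in the 4 libraries with ABA, with skip-1 without ABA between them.

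Other genes that move, store or cleave sugar were counted from lists to place the SWEET genes beside them. For ABA in skip-1 and in wild type, the counts below stand beside 28.5% and 43.1% of all features passing. Of 6 tested sucrose symporters, 3 rose with ABA in skip-1 (SUC3, SUC4 and SUC5), and in wild type 4 rose and SUC1 fell. SUC4, a vacuolar sucrose exporter, had 19.8 and 22.8 CPM in skip-1 with ABA and 13.5 and 12.9 CPM in skip-1 without ABA, against 20.8 and 26.2 CPM in wild type with ABA and 8.39 and 8.67 CPM in wild type without ABA. Without ABA it was higher in skip-1 than in wild type, by 0.63 ± 0.15 on the log2 scale (adjusted p = 0.0201). It was the 1 sucrose symporter of 6 that passed there, beside 20.5% of all features, and the median over the list was -0.247. Of 9 hexose symporters, 1 rose (STP13) and 4 fell with ABA in each genotype, and STP13 rose by 2.08 ± 0.43 in skip-1 (adjusted p = 0.0139) and by 3.21 ± 0.45 in wild type (adjusted p = 0.00167). STP1, a main hexose importer of seedlings, fell by 2.64 in wild type (adjusted p = 0.000948).

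Of 10 vacuolar and ERD6-like carriers, 3 rose and 1 fell with ABA in skip-1 beside 28.5% of all features passing, and 4 rose and 3 fell in wild type beside 43.1%. ESL1 had 213 and 188 CPM in skip-1 with ABA and 42.3 and 30.8 CPM in skip-1 without ABA, against 185 and 159 CPM in wild type with ABA and 18.0 and 14.3 CPM in wild type without ABA. It was higher in skip-1 than in wild type without ABA (log2 fold change 1.18 ± 0.18, adjusted p = 0.00445). TST2, which pumps sugar into the vacuole, had a smaller ABA effect in skip-1 by 1.10 ± 0.15 on the log2 scale (adjusted p = 0.0113), and for ERD6 the difference of the ABA effects was 1.66 ± 0.31 (adjusted p = 0.0391). ERD6 had 119 and 122 CPM in skip-1 with ABA and 95.6 and 155 CPM in skip-1 without ABA, against 43.9 and 55.1 CPM in wild type with ABA and 152 and 173 CPM in wild type without ABA. Like SWEET16, it was lowest in the wild-type libraries with ABA.

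Of 8 tested invertases, 5 rose with ABA in skip-1 beside 28.5% of all features passing, and in wild type 3 rose and 3 fell beside 43.1%. The vacuolar invertase VINV2 had 232 and 272 CPM in skip-1 with ABA and 93.9 and 106 CPM in skip-1 without ABA, against 55.3 and 48.8 CPM in wild type with ABA and 65.7 and 74.9 CPM in wild type without ABA. Its ABA effects differed by 1.77 ± 0.18 (adjusted p = 0.00581). They had opposite signs, with a rise in skip-1 and a fall in wild type (log2 fold change -0.43 ± 0.13, adjusted p = 0.0220). Of 10 genes of sucrose synthesis and cleavage, 7 rose in skip-1 and 5 in wild type, and none fell. SUS3, a sucrose synthase, rose by 2.71 ± 0.10 in skip-1 (adjusted p = 1.84e-06) and by 3.66 ± 0.11 in wild type (adjusted p = 1.89e-07), and its effect was smaller in skip-1 by 0.95 ± 0.14 (adjusted p = 0.0140).

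SAG29 takes its name from senescence, and 10 other senescence markers were tested. With ABA, 6 rose and SEN1 fell in skip-1 beside 28.5% of all features passing, and 7 rose and SEN1 fell in wild type beside 43.1%. SAG12, the defining marker of developmental senescence, had no count in any library. NYE1, which starts chlorophyll breakdown, had 56.0 and 71.9 CPM in skip-1 with ABA and 19.9 and 23.7 CPM in skip-1 without ABA, against 114 and 113 CPM in wild type with ABA and 13.7 and 17.1 CPM in wild type without ABA. Its ABA effect was smaller in skip-1 by 1.32 ± 0.22 on the log2 scale (adjusted p = 0.0224). SAG13 had 36.8 and 25.1 CPM in skip-1 with ABA and 2.52 and 6.02 CPM in skip-1 without ABA, against 28.3 and 32.0 CPM in wild type with ABA and 0.872 and 0.486 CPM in wild type without ABA. Like SAG29, it was higher in skip-1 than in wild type without ABA (log2 fold change 2.63 ± 0.54, adjusted p = 0.0175). It was the 1 senescence marker of 10 that was higher there, while SEN1 and SAG20 were lower (log2 fold changes of -1.87 ± 0.34 and -1.23 ± 0.27, adjusted p-values of 0.0126 and 0.0218), beside 20.5% of all features passing and with a median of 0.006 over the list.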

How the data were processed

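Messenger RNA of 8 seedling libraries was sequenced, 2 in each of 4 groups. The authors deposited raw read counts per gene and a companion table of FPKM, which was checked and equals the count per gene length and library total. Per the submitters' processing notes, Bowtie2 2.2.3, TopHat2 2.0.12 and HTSeq 0.6.1 were used on TAIR10. Neither their roles and options nor the strand setting is known from the labels.

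The analysis of counts used edgeR 4.0.16 (R 4.3.3). The expression filter (minimum count 10) applied by group kept 21008 of 33674 features. The robust quasi-likelihood fit used TMM scaling, 1 coefficient per group, 4 residual degrees of freedom and a common dispersion of 0.0178. P-values were adjusted by Benjamini-Hochberg within each comparison, with a threshold of 0.05, and "passed" means below it. A fold change on the log2 scale carries the tool's prior count, and its approximate standard error is its size over the square root of F. Profiles were compared in log2 CPM with a prior count of 2. The script was tested on simulated data. Since the labels do not state that replicates were grown separately, the p-values reflect the spread among these libraries, which may be technical. At 20870110 to 23640113 reads per library, a gene with under 30 counts has a wide counting error, as for SWEET14.

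Equal replicate numbers are not said in the labels to share a batch. Deviations from the group mean of equally numbered libraries correlated at 0.111 to 0.258 in the 6 pairs of groups, a hint from the data that they go together, although with 2 libraries a group the deviations mirror each other. The reported fit has no block. In the comparisons given with a test, the blocked value stands beside each member's call that it changes. For the difference of the ABA effects, the members that the block adds are only named.

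The members and the 13 lists of 115 genes were chosen with earlier results of these data known. Named were all 10 members, SKIP, up to 3 genes of a list with the smallest adjusted p in a comparison and the 5 nearest profiles of SAG29, SWEET4 and SWEET13. SUC1, WOX5, SAG12, CALS7, KAT1, SWEET5, SWEET7 and SWEET10 were further named, chosen after their values were seen. Gene models, protein identity and upstream sequence were taken from RefSeq's TAIR10.1, in which 32835 features were found. Alternatives were size factors (RLE), library size alone, no filter on low counts, DESeq2 1.42.0, the replicate number as a block, each library left out, and FPKM for levels.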

Additional observations from a re-analysis of the deposited data

Results flagged for a closer look

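The fitted ABA effect of SAG29 and SWEET4 was smaller in skip-1 than in wild type, given here as a description. For SAG29 the difference (skip-1 minus wild type) was -4.50 on the log2 scale, with ABA effects of 4.30 ± 0.46 in skip-1 and 8.80 ± 0.62 in wild type. Its libraries without ABA held 588 and 191 counts in skip-1, against 18 and 16 in wild type. For SWEET4 the difference was -2.09, with ABA effects of 4.50 ± 0.19 in skip-1 and 6.58 ± 0.22 in wild type. Across 13 alternatives the difference ran between -5.00 and -3.62 for SAG29 and between -2.63 and -1.68 for SWEET4. Both were flagged because they passed in the edgeR fit across all features, so that pass is no support for them. The pass was lost in 7 of the 13 alternatives for SAG29, and in 1 for SWEET4, without replicate 1 of wild type with ABA. The 7 were no filter on low counts and the fits without either wild-type library without ABA, either wild-type library with ABA or either skip-1 library with ABA. The wild-type effect is treated as the one that chose these genes, so the differences are descriptions, and the part of the choice in them was not tested.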

How the results depend on the processing

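Under size factors (RLE), no filter, DESeq2 and library size alone, the counts of passing members and features stayed within 1.5 times the reported ones, except for the difference of the ABA effects. There 4 members passed in place of 2 with library size alone and with DESeq2, and 1198 features in place of 644 with DESeq2. Library size alone moved the median of all features to -0.22 for ABA in wild type, 0.12 for skip-1 against wild type with ABA and 0.15 for the difference of the ABA effects, against -0.01, -0.02 and -0.02. DESeq2 gave no adjusted p for SWEET14 in that difference. With the replicate number as a block, 4 members and 1357 features passed for the difference of the ABA effects (SWEET13 and SWEET16 added), and SWEET2 and SWEET13 passed between genotypes with ABA. The block changed no other member's call. Counts of members in the difference are read no further, since it contains the effect treated as the choice. With each library left out in turn, 3532 to 5625 features passed for ABA in skip-1. Without ABA, 1 to 4 members (SWEET14 counted) and 1383 to 3785 features passed between genotypes, and with ABA 2 to 6 members and 3521 to 6851 features. For the difference of the ABA effects, 0 to 3 members and 121 to 608 features passed. The causes of these changes were not tested. No member that passed changed sign, and 13 member values that had not passed did. Group means by the authors' FPKM lay 1 SD or more from those of FPKM with TMM scaling in 7 of 40 cases. Few counts limit SWEET14 in all groups and SAG29, SWEET4 and SWEET13 in wild type without ABA.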

Other observations

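Of the SWEET genes that were not among the 10, SWEET7 had counts in skip-1 and none in wild type. It had 3 and 5 counts in skip-1 with ABA and 7 and 4 in skip-1 without ABA, against 0 in each of the 4 wild-type libraries. These counts lie below the filter, so they were not tested, and the gene was singled out after its values were seen. SWEET5, a clade II member, had 0.501 and 0.772 CPM in skip-1 with ABA and 0.681 and 0.517 CPM in skip-1 without ABA, against 1.58 and 1.15 CPM in wild type with ABA and 1.25 and 0.851 CPM in wild type without ABA. All 4 skip-1 libraries lay below all 4 wild-type libraries, but neither genotype difference passed in edgeR (log2 fold change -1.10 ± 0.41, adjusted p = 0.0700, with ABA and -0.79 ± 0.41, adjusted p = 0.202, without ABA). SWEET10 differed by -0.49 ± 0.33 with ABA (adjusted p = 0.283) and by -0.70 ± 0.32 without ABA (adjusted p = 0.156).

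Of 7 photosynthesis markers, 4 were higher in skip-1 than in wild type with ABA, beside 31.0% of all features passing, and 4 without, beside 20.5%, and LHCA4, a light-harvesting protein, was higher by 1.79 ± 0.20 on the log2 scale with ABA (adjusted p = 0.000813) and by 1.67 ± 0.20 without (adjusted p = 0.00165). Of 5 guard cell markers, 2 were lower with ABA in skip-1, beside 28.5% of all features passing there in either direction. In wild type 3 were lower and KAT1 higher, beside 43.1%. MYB60, a regulator of stomatal opening, fell by 0.98 in skip-1 (adjusted p = 0.00753) and by 1.59 in wild type (adjusted p = 0.000314).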
